A study of Elaeis guineensis with 6 samples.

Results

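DRM was 1 of the 32099 gene records in a table of transcript levels from oil palm (Elaeis guineensis) inflorescences, and it was selected on its FPKM values, for a level that was much higher after defoliation. The selection used all 6 values, so the levels, ranks and profile of DRM are given as a description, with no test. Each of the 6 libraries was 1 inflorescence sample. The stress libraries came from 1 completely defoliated tree, of which only the unopened central leaf was kept, at leaf axils -27, -20 and +5. The control libraries came from 1 untreated tree at the same leaf axils. Both were field-grown plantation trees felled 45 days after the treatment, and leaf axils -27, -20 and +5 run from the earliest to the latest stage sampled. With 1 tree per treatment, defoliation and the tree cannot be told apart, and there is no replicate at any leaf axil.

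Oil palm bears male and female inflorescences separately on the same tree, in the axils of successive leaves, and removal of the leaves takes away the main source of sugars. The symbol DRM is in use for unrelated plant genes. It names the domains rearranged methyltransferases, enzymes of de novo DNA methylation, and also the dormancy-associated proteins, small proteins whose transcripts are known in other plants from resting buds and from tissue with little auxin. The deposited table and the RefSeq gene table for the newer oil palm assembly EG11 give the symbol DRM without a product name, and the gene table marks it as protein-coding. Which of these proteins the record stands for is therefore not given in the sources used here. The table held 1 record of that symbol.

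The level is given as FPKM, the fragment number of a gene after division by gene length and library size, as the authors deposited it. Differences are given as log2(FPKM + 1), and the background was the 18728 genes that reached an FPKM of 1 in 3 or more libraries. The depth of the libraries, read from the steps of low FPKM values relative to the control library at -27, lay between 0.949 (control, +5) and 1.19 (stress, -27). Of the 14 floral organ genes looked for, 6 had a record and 2 passed the filter. SQUA1, a MADS-box gene of the SQUAMOSA type, was at 4.1, 8.43 and 150 FPKM under stress at -27, -20 and +5, against 5.59, 6.78 and 124 in the control. GLO2, a B-class floral gene, was at 2.15, 0.844 and 3.51 FPKM under stress at -27, -20 and +5. In the control it was at 3.61, 4.86 and 7.83, so GLO2 was lower in the defoliated tree at each leaf axil. Its stress value at -20 lay below the FPKM of 1 used in the filter. AG2 was listed at 0 in every library. AGL6-1 was at 2.21 FPKM and AGL2-3 at 0.153 in the control library at +5, and DEF1 was at 0.164 in the control library at -27. These 3 were listed at 0 in every other library. KNOX1, a homeobox gene of the meristem, was at 961, 914 and 928 FPKM under stress at -27, -20 and +5, against 847, 480 and 381 in the control. It was thus higher in the defoliated tree at each leaf axil, as DRM was, with log2 differences of 0.18, 0.93 and 1.28, and its part in the DRM difference was not tested. The 4 leaf gene symbols looked for had no record. In whole tissue, a change in the cells that make a transcript and a change in its amount per cell cannot be told apart.

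DRM was at 39.1, 123 and 1048 FPKM in the stress libraries at leaf axils -27, -20 and +5, against 7.53, 20.1 and 48.4 in the control libraries. The level was thus higher in the defoliated tree at each leaf axil, and it was higher at each later leaf axil within both trees. The groups overlapped: the earliest stress library, at -27, lay below the latest control library, at +5 (0.808 times its FPKM), while the stress library at -20 had 2.55 times the FPKM of that control library. From lowest to highest, the order was control -27, control -20, stress -27, control +5, stress -20 and stress +5. Without replicates, whether neighbours in this order differ beyond the spread between trees was not tested. The highest and the lowest library were 139-fold apart.

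**Figure D1:**
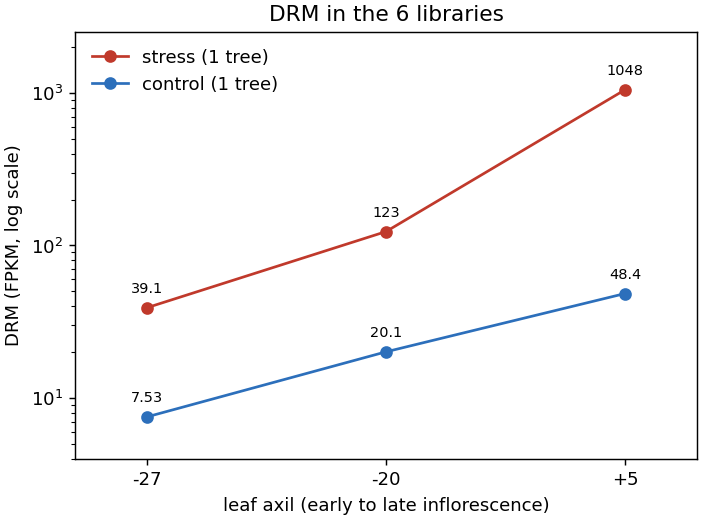
DRM level (FPKM, log scale) by leaf axil in the stress libraries (red) and the control libraries (blue), each point 1 library and each line 1 tree, with no error bars because there are no replicates. The stress points at 39.1, 123 and 1048 lie above the control points at 7.53, 20.1 and 48.4, and the gap is widest at +5.

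The FPKM ratio of stress to control was 5.2 at leaf axil -27, 6.14 at -20 and 21.7 at +5. On the log2(FPKM + 1) scale the differences were 2.23, 2.56 and 4.41. At -27, 37 tested genes had a larger difference than DRM, at -20 there were 10 and at +5 there were 6. No tested gene had a larger difference than DRM at all 3 leaf axils. A difference of at least 2-fold upwards was found for 2.65% of tested genes at -27, 2.55% at -20 and 5.92% at +5, and for 0.726% at all 3 leaf axils. These shares are set beside DRM only to show where it lies, since DRM was chosen for this contrast. The median difference of the tested genes was -0.03, -0.06 and -0.11 at the 3 leaf axils. After each library was centred on its median, DRM stood at 2.28, 2.65 and 4.55.

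**Figure D2:**
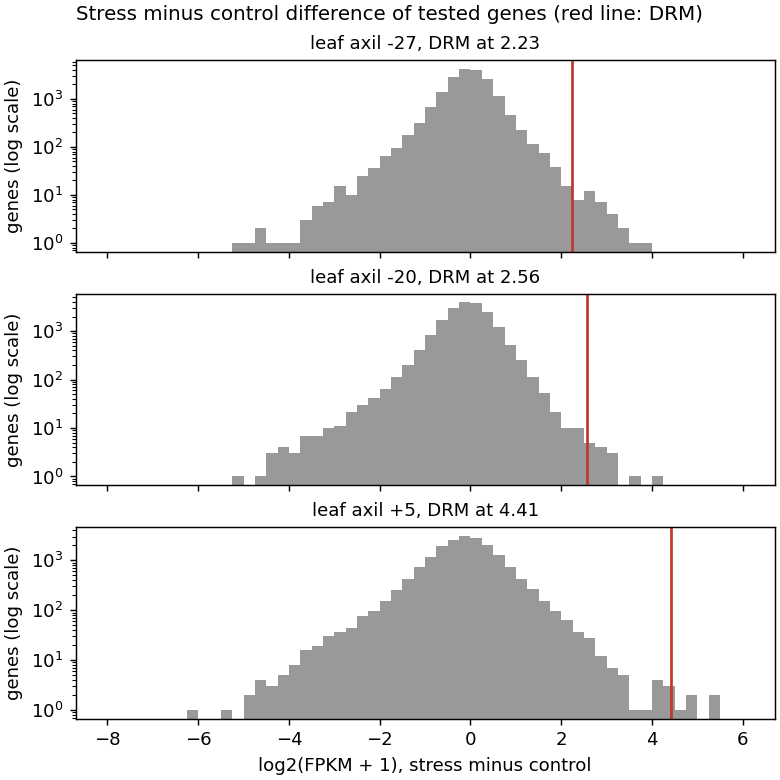
Number of tested genes (log scale) by the log2(FPKM + 1) difference of stress minus control at each leaf axil, in bins of equal width, with DRM as a red line. DRM lies in the upper tail at 2.23, 2.56 and 4.41, with 37, 10 and 6 genes beyond it.

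The difference at +5 was larger than the mean of the differences at -27 and -20 by 2.01 on the log2 scale, and 116 tested genes had a larger value of this measure. Averaged over the leaf axils, the log2 difference was 3.07. With 1 library left out, the mean of the remaining stress libraries minus that of the remaining control libraries was taken. This value came to 1.77 without the stress library at +5, the largest shift. The control library at +5 was kept there, so the leaf axils were not matched, and DRM rose along them in both trees. Ordered by the smallest of the 3 differences, DRM was number 9 of the 18728 tested genes. Just above it stood LOC105058072, LOC105050876 and LOC114913090, with smallest differences of 2.57, 2.33 and 2.29, and just below it LOC105047040, LOC105032208 and LOC105051163, with 2.17, 2.11 and 2.06. The files give none of these a gene name. Most of them were low genes: 5 of the 6 had an FPKM under 2 in all control libraries, and LOC105058072 was listed at 0 there. LOC105050876 was the exception, at 48.8, 45.1 and 38.1 FPKM under stress at -27, -20 and +5, against 5.44, 5.23 and 6.76 in the control. Unlike DRM, it was lower at each later leaf axil of the defoliated tree.

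Along the leaf axils of the defoliated tree, the DRM level was multiplied by 3.15 between -27 and -20 and by 8.5 between -20 and +5. In the control tree the factors were 2.67 and 2.41. From -27 to +5 the rise was 26.8-fold under stress and 6.43-fold in the control. Rises of at least 2-fold were rarer among tested genes at the early step than at the late one. A rise of at least 2-fold on the log2(FPKM + 1) scale between -27 and -20 was found for 0.481% of tested genes under stress, where DRM was number 12 by size, and for 0.502% in the control, where it was number 39. Between -20 and +5 such a rise was found for 3.88% under stress and 7.1% in the control, and DRM was number 15 under stress and number 881 in the control. Over the whole span from -27 to +5, where 4.25% of tested genes under stress and 7.36% in the control were at least 2-fold higher at +5, DRM was number 3 under stress and number 117 in the control.

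A rise of at least 2-fold at each of the 4 steps, early and late in both trees, was found for 2 of the 18728 tested genes (0.0107%), DRM and LOC105040884. LOC105040884, singled out after its values were seen, was at 1.29, 5.86 and 35 FPKM under stress at -27, -20 and +5, against 0.188, 1.81 and 9.66 in the control. A rise of any size at all 4 steps was found for 1124 genes. Of these, 323 were also higher under stress at all 3 leaf axils, and in 8, DRM among them, each of those differences was at least 2-fold. The other 7 were LOC105032626, LOC105038573, LOC105041051, LOC105044313, LOC105054906, LOC114913090 and LOC114914377, again singled out afterwards. Their highest FPKM, in the stress library at +5, lay between 5.84 (LOC105032626) and 46.8 (LOC105038573), against 1048 for DRM.

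DRM also stood high among all genes of the stress libraries, and least so in the control library at -27. Its FPKM of 7.53 in that control library was near the median of the tested genes, 5.79. In the stress library at -27 it was number 1064 by FPKM among the 32099 records, at -20 number 181, and at +5 number 7. In the control it was number 7610 at -27, number 2570 at -20 and number 851 at +5. DRM held 0.439% of the summed FPKM of the stress library at +5, against 0.018% of that of the control library at +5. The 6 records above it in the stress library at +5 had an FPKM between 1248 (LOC105035217) and 2760 (LOC105056944) there. All of these were also high in the control library at +5, where the lowest was LOC105035217 at 318, against 48.4 for DRM. The range of DRM over the 6 libraries was 6.94 on the log2 scale, and 2 tested genes had a wider one. LOC105047088 was at 129, 106 and 1.47 FPKM under stress at -27, -20 and +5, against 9.45, 65.1 and 0 in the control, and so was lowest at +5 in both trees. LOC105038944 was at 118 in the stress library at +5 and at 170 in the control library at +5, and at 2.55 or less in the early libraries of both trees.

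**Figure D3:**
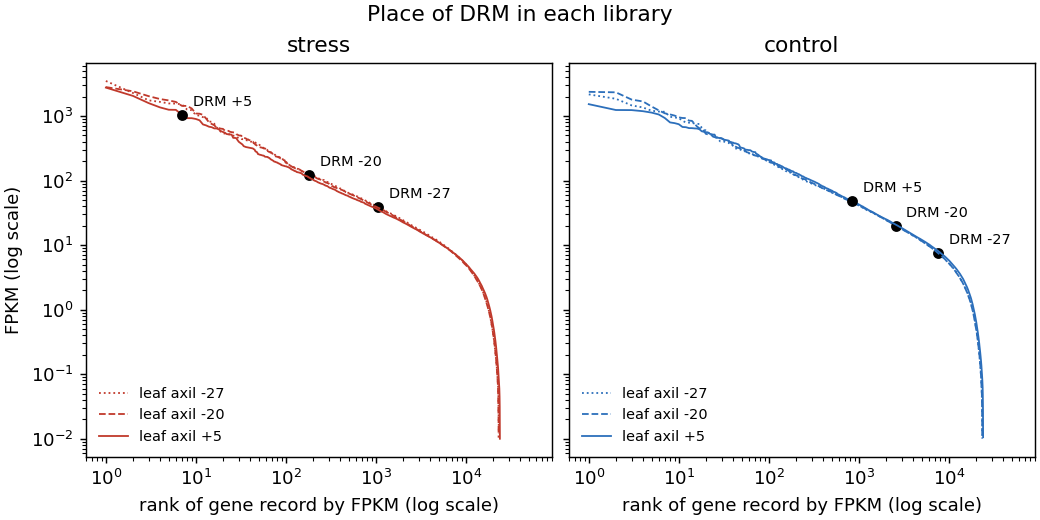
FPKM of the gene records of each library (log scale) against their rank (log scale), stress libraries left in red and control libraries right in blue, with DRM as a black point on each of the 6 curves. DRM stands at ranks 1064, 181 and 7 in the stress libraries at -27, -20 and +5, and at 7610, 2570 and 851 in the control libraries.

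Likeness of profile was measured as Pearson's r of log2(FPKM + 1) with DRM over the 6 libraries, which all genes share, as they share the 2 trees and the order of the leaf axils. Over the other 18727 tested genes r lay between -0.994 and 0.994, with a median of -0.07, and 100 genes were above 0.95. The 10 highest were LOC105054590 (0.994), LOC105035468 (0.993), LOC105054750 (0.993), LOC105046081 (0.993), LOC105048610 (0.992), LOC105057551 (0.992), LOC105038517 (0.991), LOC105051836 (0.988), LOC114914451 (0.987) and LOC105045930 (0.986). All 10 were highest in the stress library at +5, were higher at each later leaf axil in both trees and were higher under stress at each leaf axil. The last 2 traits together were found for 323 of the 18728 tested genes. The 10 genes were chosen for r over these same 6 libraries, so the shared pattern follows largely from that choice. They had the shape of the DRM profile but not its size: none was at least 2-fold higher under stress at all 3 leaf axils, and their log2 range over the libraries lay between 0.44 and 3.08, against 6.94 for DRM. The widest was that of LOC105057551, at 4.91, 7.07 and 25.6 FPKM under stress at -27, -20 and +5, against 2.16, 3.37 and 5.56 in the control. The mean FPKM of the 10 lay between 1.25 and 11.5. The list was sensitive to the scaling, since 2 of the 10 were among the highest 10 after centring on library medians and 1 after quantile normalization.

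The 3 lowest r belonged to LOC105049309 (-0.994), LOC105059826 (-0.992) and LOC105051723 (-0.99). LOC105059826 was at 33.4, 30.6 and 21 FPKM under stress at -27, -20 and +5, against 41.8, 36.5 and 33.7 in the control. It was thus lower at each later leaf axil and lower in the defoliated tree at each leaf axil, by small amounts.

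A second measure, the Euclidean distance between mean-centred log2 profiles, takes the size into account as well. None of the 10 genes nearest to DRM by distance was among the 10 with the highest r. The nearest was LOC105038573, at a distance of 1.92, at 1.79, 3.04 and 46.8 FPKM under stress at -27, -20 and +5, against 0.359, 0.792 and 0.852 in the control. LOC105044313 had the highest r of these genes (0.978), at 5, 6.17 and 30 FPKM under stress, against 1.09, 2.55 and 6.53 in the control. LOC105036079 had the lowest r (0.852): it was at 13.1, 42.2 and 145 FPKM under stress at -27, -20 and +5, against 5.58, 7.48 and 2.28 in the control, so that it was lowest in the control library at +5, unlike DRM. All 10 were highest in the stress library at +5 and at least 2-fold higher there than in the control library at +5, as were 5.92% of tested genes in the second respect. At all 3 leaf axils, 4 of the 10 were at least 2-fold higher under stress, against 0.726% of tested genes. Genes near DRM by distance were chosen on these same values, so such likeness follows largely from the choice. None of these genes has a name in the files.

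**Figure D4:**
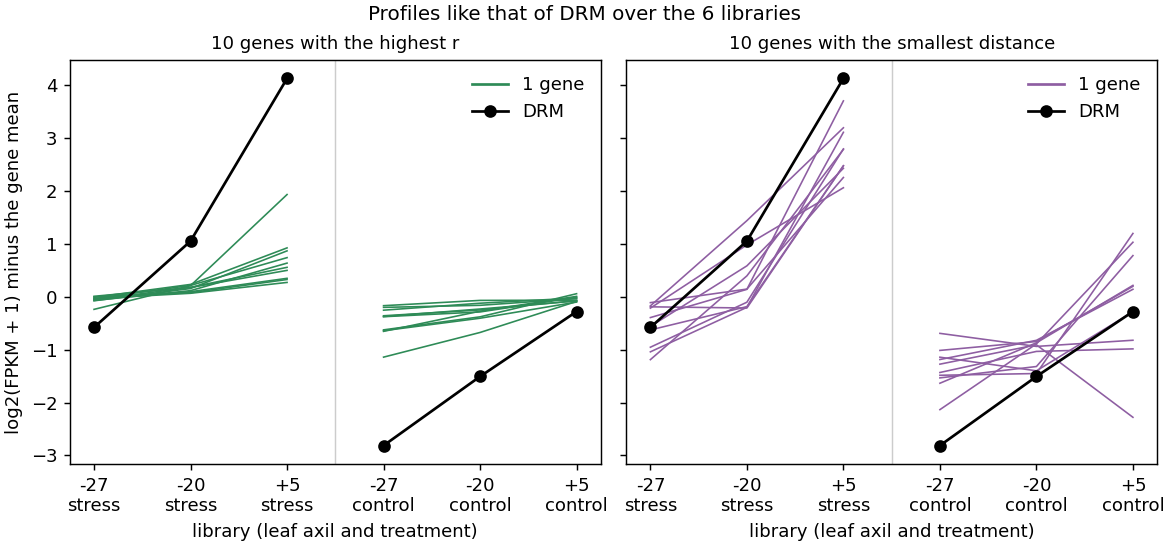
Mean-centred log2(FPKM + 1) in the 6 libraries for DRM (black points) and for the 10 genes with the highest r (left, green) and the 10 with the smallest distance (right, purple), each line joining the 3 leaf axils of 1 tree. The green lines turn with DRM but are flatter, with a log2 range of at most 3.08 against 6.94, and the purple lines all peak in the stress library at +5. Both sets were chosen for their likeness to DRM in these same values.

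The order of the 6 libraries seen for DRM was shared by 53 other tested genes, and 5 of the 10 genes with the highest r were among them.

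The 8 protein-coding genes nearest to DRM in the order of the EG11 assembly, were looked up after the DRM values were known. All 8 had a record and 6 passed the filter. The log2 differences of these 6, stress minus control, lay between -0.88 and 0.38. LOC105045182 and LOC105045187 did not pass. None of the 8 was at least 2-fold higher under stress at any leaf axil. Of all tested genes, 2.65% were at -27, 2.55% at -20 and 5.92% at +5. With such low shares and so few genes, that count is no result about the neighbours of DRM. LOC105045181 was the most abundant, at 89.1, 85.6 and 171 FPKM under stress at -27, -20 and +5, against 75, 66.9 and 316 in the control. The immediate neighbours were LOC105045182, listed at 0 in every library, and LOC105045184, at 6.82, 6.84 and 7.3 FPKM under stress and 5.84, 6.38 and 7.55 in the control. Reads shared between DRM and a near-identical copy elsewhere were not tested.

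Genes of hormone signalling and oxidative stress with a symbol in the table were set beside DRM. In limma over all tested genes, 99 genes (0.529%) differed between the 3 stress and the 3 control libraries at an adjusted p under 0.01 and at least 2-fold (Benjamini-Hochberg adjustment). None of the 4 listed genes was among them, and 1 of the 4, IAA1, had an unadjusted p under 0.05, as had 22.4% of tested genes. IAA1, a member of the Aux/IAA family of auxin response repressors, was at 52.4, 55.4 and 62 FPKM under stress at -27, -20 and +5, against 136, 129 and 90.1 in the control. Every stress library lay below every control library, as for 18.2% of tested genes (log2 difference -1.03, standard error 0.2, adjusted p = 0.0459 from limma, and between 0.0155 and 0.194 over the alternatives). The IAA1 difference was largest in size at -27, where it was -1.35, and smallest at +5, where it was -0.53, whereas that of DRM was largest at +5.

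AHP1, a phosphotransfer protein of cytokinin signalling, had a log2 difference of 0.07 (standard error 0.16, adjusted p = 0.83 from limma). GSK, a kinase of the family that acts in brassinosteroid signalling, had 0.30 (standard error 0.22, adjusted p = 0.451 from limma), and 0.13 without the control library at +5. GST, a glutathione transferase symbol, was at 20.4, 21.3 and 28.8 FPKM under stress at -27, -20 and +5, against 27.4, 14.7 and 9.15 in the control (log2 difference 0.55, standard error 0.36, adjusted p = 0.414 from limma). Its log2 difference was 0.20 without the control library at +5 and 0.94 without the control library at -27. The 3 symbols of DNA methylation enzymes that were looked for, and CAT2, had no record.

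The number of genes past the threshold depended on single libraries. It was 32 with a replicate block for the leaf axil, 89 without the control library at +5, 14 without the stress library at +5, 1 without the stress library at -27, and 0 without any 1 of the other early libraries, where between 2814 and 3343 genes had an unadjusted p under 0.05 in limma. The libraries of a treatment are different leaf axils of 1 tree, so these p-values measure the spread between leaf axils and not between trees.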

How the data were processed

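Total RNA from 6 inflorescence samples was sequenced as paired-end reads. The authors aligned untrimmed reads with HISAT2 2.1.0 (version per the submitters' processing notes) to an earlier oil palm assembly than EG11, quantified genes with StringTie 1.3.4 and deposited FPKM values without a filter on low values. Such values hold no read counts, so a count test was not run and no counting interval is given, and FPKM depends on the abundance of the other genes of a library.

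From the FPKM values, log2(FPKM + 1) was computed. Genes reaching an FPKM of 1 in 3 or more libraries were tested, stress against control without a covariate, with limma 3.58.1 in R 4.3.3 (eBayes with a mean-variance trend, Benjamini-Hochberg adjustment). The threshold was an adjusted p under 0.01 and at least 2-fold. Libraries of the same leaf axil deviated together from their treatment means (r across genes 0.211, 0.344 and 0.409 at -27, -20 and +5), so the leaf axil of the labels was used as a replicate block in an alternative. Relative depth was the most frequent ratio between libraries among genes with an FPKM under 1 in all of them. Ranks and profiles were computed with Python 3.11.15 and pandas 2.3.3. Gene records were matched by symbol to the EG11 gene table (28655 records, 89.3%), used only for symbols and gene order. No protein or promoter sequence was used here, so the planned lists of proteins related to DRM and IAA1 were not made.

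The genes named by rule were DRM, the 10 with the highest and the 3 with the lowest r, the 3 above and the 3 below DRM in the order of the smallest difference, and the listed symbols. DRM and the lists were chosen with earlier results of these data known. Alternatives were other pseudocounts (0.1 and 5), centring on library medians, quantile normalization, a minimum mean FPKM of 5, no filter, the replicate block, other measures of likeness and leaving out each library.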

Additional observations from a re-analysis of the deposited data

How the results depend on the processing

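The log2 differences of DRM between stress and control kept their direction under both other pseudocounts, quantile normalization and centring on medians. They ranged from 1.82 to 2.36 at leaf axil -27, from 2.36 to 2.65 at -20 and from 4.3 to 4.68 at +5, and the rise from the early leaf axils to +5 ranged from 3.81 to 4.06 under stress and from 1.59 to 1.97 in the control. With 1 library left out, the mean of the remaining stress libraries minus that of the remaining control libraries lay between 1.77 and 4.12. The value of 1.77 came without the stress library at +5. The leaf axils were not matched in these values, so they also hold differences between leaf axils. Of the 10 genes with the highest r, 0 were among the 10 nearest by distance, 5 were among the genes tied at a Spearman's rho of 1, 1 remained after quantile normalization, 2 after centring on medians, 7 with a pseudocount of 0.1, 7 without a filter, and between 2 and 6 with 1 library left out (3 without the control library at -27). Against 99 genes past the threshold between stress and control (28 higher and 71 lower), there were 48 with a pseudocount of 5, 7 without a filter, 32 where a mean FPKM of 5 was the minimum, and between 0 and 89 with 1 library left out (14 without the stress library at +5). A replicate block for the leaf axil gave 32, and 26 of them were among the 99. Centring on medians gave 38 higher and 62 lower, as did quantile normalization. The log2 difference of AHP1 turned to -0.010 without the control library at -20 and to -0.0042 without the stress library at -20. The block changed the call of none of IAA1, AHP1, GSK and GST. Among tested genes alone, DRM was number 7605 in the control library at -27, against 7610 among all records, and it moved by fewer places elsewhere. These data, from 1 tree per treatment, cannot show how far DRM varies between trees. Stricter limits for the lists of related proteins were not run, since those lists were not made.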
